A study of Homo sapiens with 12 samples.

Results

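β-catenin and the 4 TCF/LEF factors form the last step of canonical Wnt signalling, and their mRNAs were followed here through 4 culture conditions of one adrenocortical carcinoma line. The 5 genes, CTNNB1, LEF1, TCF7, TCF7L1 and TCF7L2, were chosen by symbol from the 60617 Ensembl genes of the count table. All 5 passed the filter on low counts, which left 20360 genes to be tested. NCI-H295R, an established human cell line that makes steroid hormones, was grown in all groups, and polyadenylated RNA was sequenced from 3 biological replicates per group, 12 libraries in all. The baseline group had the vehicle DMSO for 96 h. The EZH2i group had 62 µM EPZ-6438, an inhibitor of the Polycomb histone methyltransferase EZH2, for 96 h, and the CBPi group had 26 µM PRI-724, described as keeping β-catenin from its coactivator CBP, for 96 h. In the FSK group 48 h of vehicle was followed by 48 h of 10 µM forskolin, an activator of adenylyl cyclase that makes cells produce cAMP. Both inhibitor doses are IC50 doses per the labels. The line is known to carry an activating CTNNB1 mutation, which every group shares, and the counts do not separate alleles.

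Without a Wnt signal β-catenin is phosphorylated by a destruction complex of APC, AXIN and the kinases GSK3 and CK1 and is then degraded. Stabilised β-catenin enters the nucleus, where it has no DNA-binding domain of its own and binds the amino terminus of a TCF/LEF factor. These factors hold target genes silent with Groucho/TLE corepressors and activate them with β-catenin and coactivators such as BCL9, Pygopus and CBP. LEF1 and TCF7 are themselves targets in many tissues, TCF7L1 acts mostly as a repressor, and TCF7L2 can do either. In the adrenal cortex canonical Wnt signalling maintains the progenitor cells and the outer, aldosterone-making zone.

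The genes lie on different chromosomes (hg38, positions from GENCODE release 29). CTNNB1 spans chr3:41194741-41260096 on the plus strand and LEF1 chr4:108047545-108168956 on the minus strand. TCF7 spans chr5:134114711-134151865, TCF7L1 chr2:85133410-85310388 and TCF7L2 chr10:112950250-113167678, all on the plus strand. The TCF/LEF factors are paralogues that bind DNA through a shared HMG box. A stretch of 60 bases of that box is shown because it is, among ungapped coding windows of that length, the one with the fewest bases in all unlike LEF1. Capitals mark bases that differ from LEF1, and each window lies within 1 coding exon of a GENCODE transcript (LEF1 exon 8, chr4:108078271-108078330, minus strand; TCF7 exon 7, chr5:134142773-134142832; TCF7L1 exon 9, chr2:85306255-85306314; TCF7L2 exon 10, chr10:113151774-113151833).
LEF1: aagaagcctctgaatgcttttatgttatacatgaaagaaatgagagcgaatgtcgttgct
TCF7: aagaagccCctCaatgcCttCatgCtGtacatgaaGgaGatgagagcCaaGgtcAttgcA
TCF7L1: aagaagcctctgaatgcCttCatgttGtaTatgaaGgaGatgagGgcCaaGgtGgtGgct
TCF7L2: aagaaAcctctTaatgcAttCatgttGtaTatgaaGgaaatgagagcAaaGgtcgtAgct
TCF7 differed from LEF1 at 12 of these 60 bases, TCF7L1 at 11 and TCF7L2 at 10. Over whole coding transcripts the longest run of identical bases was 29 between LEF1 and TCF7L1, 26 between TCF7L1 and TCF7L2 and 17 between TCF7 and TCF7L2. LEF1 and TCF7 shared no run longer than 11 bases. The deposited counts of the 5 genes were whole numbers in all 12 libraries, apart from 1423.5 for LEF1 in FSK replicate 2.

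Total counts were 20.6 to 31.5 megacounts per library, and replicates correlated at 0.992 to 0.996 on log2 CPM across genes, which are not independent replicates. CBPi replicate 2 stood furthest from its group, where chi-square divided by its degrees of freedom was 14.5 and 13.3 against the other 2 CBPi libraries and 2.71 to 7.34 in the other 10 replicate pairs. The share of mitochondrial counts was 2.37% to 3.22% in baseline and 2.64% to 3.22% in FSK libraries, and higher without overlap in EZH2i (3.27% to 4.40%) and CBPi libraries (3.58% to 4.81%, highest in replicate 2). Its part in the results was not tested. Adrenocortical markers were detected throughout, with 0 of 10 at zero, and their summed level was 1996 to 2062 CPM in baseline libraries, 625 to 651 in EZH2i, 589 to 661 in CBPi and 3890 to 4090 in FSK libraries. The 10 did not all move together. With EZH2i 9 fell and NR0B1 rose, from 10.3 to 20.4 CPM, and with CBPi 9 fell and NR0B1 was not called. With FSK 7 rose, NR0B1 fell to 3.04 CPM and MRAP from 2.55 to 0.241 CPM, and INHA was not called. The shares of all genes called were 57.8%, 58.9% and 50.6%. The part of the summed level in the results below was not tested. LEF1 and TCF7 are also genes of T cells, so T cell markers were read beside them. CD2 had no count in any library, and CD3D, CD3E, CD3G, CD28 and PTPRC had none in any baseline, CBPi or FSK library and averaged 0.011 to 0.044 CPM in EZH2i libraries. CD5 and the cytokine receptor gene IL7R were the only 2 of the 8 markers that passed the filter. In these bulk cultures fewer cells of a type and less RNA per cell cannot be told apart.

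At baseline β-catenin mRNA was far more abundant than that of any TCF/LEF factor, and LEF1 led among the factors. On a scale per kilobase of the deposited gene length (TMM-scaled counts per megacount per kilobase), CTNNB1 was at 109 ± 1.9, LEF1 at 17.4 ± 0.54, TCF7 at 7.99 ± 0.037, TCF7L2 at 2.04 ± 0.058 and TCF7L1 at 0.151 ± 0.042 (SD, n = 3). No neighbours in that order overlapped between libraries. The order held in EZH2i and CBPi libraries. In FSK libraries TCF7, at 12.3 ± 0.15, stood above LEF1, at 10.9 ± 0.34, again with no overlap. The deposited length (10093 bases for TCF7 and 5361 for LEF1) is longer than the longest coding transcript of each gene (3330 and 3477). Per kilobase of the longest coding transcript LEF1 was at 26.8 ± 0.83 and TCF7 at 24.2 ± 0.11 at baseline, a narrower gap, and at 16.9 ± 0.52 and 37.2 ± 0.46 with FSK.

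CTNNB1, the β-catenin gene, fell with EZH2i, and its other 2 comparisons with baseline did not pass. Its baseline libraries were at 1254, 1298 and 1287 CPM (TMM-scaled counts per megacount), and the EZH2i libraries at 951, 988 and 973 CPM. All 3 EZH2i libraries lay below every other library. The log2 fold change was -0.40 ± 0.03 (SE), 1.32-fold lower (quasi-likelihood test of edgeR, Benjamini-Hochberg adjusted p = 5.67e-09). CBPi libraries were at 1305, 1349.8 and 1341 CPM, just above baseline with no overlap, and the difference did not pass (log2 fold change 0.06, 95% interval -0.014 to 0.13, edgeR adjusted p = 0.154). FSK libraries were at 1265, 1233 and 1259.7 CPM and overlapped baseline (-0.03, interval -0.10 to 0.042, edgeR adjusted p = 0.493). Against CBPi, CTNNB1 was lower with EZH2i by a log2 fold change of -0.46 ± 0.03, and against FSK by -0.37 ± 0.03 (edgeR adjusted p = 2.07e-09 and 1.09e-08). The difference between CBPi and FSK, 0.09 ± 0.03, passed (edgeR adjusted p = 0.0328). It was lost under 7 of 15 alternatives, 5 of which left out 1 library (CBPi replicate 2 or 3, or any FSK library, with adjusted p of 0.0529 to 0.0985). ULK4, whose last part overlaps 13.5 kb of the CTNNB1 locus on the other strand, averaged 8.27 to 11.3 CPM in the 4 groups.

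LEF1, the factor with the highest mRNA level at baseline, changed in all 3 comparisons with baseline. Baseline libraries were at 96.1, 92.7 and 90.4 CPM. EZH2i libraries were at 206, 201 and 188 CPM, CBPi libraries at 146, 135 and 149 CPM, and FSK libraries at 56.7, 58.9 and 60.3 CPM. The 4 groups did not overlap, in the order EZH2i, CBPi, baseline and FSK. LEF1 was 2.13-fold higher with EZH2i (log2 fold change 1.09 ± 0.05 SE, edgeR adjusted p = 1.91e-13) and 1.54-fold higher with CBPi (0.62 ± 0.05, edgeR adjusted p = 1.09e-09). It was 1.59-fold lower with FSK (-0.67 ± 0.05, edgeR adjusted p = 7.5e-10). In a test against a fold of 1.5 the rise with EZH2i passed (edgeR glmTreat adjusted p = 5.76e-09), and the changes with CBPi and FSK did not (0.433 and 0.132). The treatments also differed from one another. EZH2i exceeded CBPi by 0.47 ± 0.05 on the log2 scale (edgeR adjusted p = 1.1e-07), EZH2i exceeded FSK by 1.76 ± 0.05 (4.93e-17) and CBPi exceeded FSK by 1.29 ± 0.05 (1.04e-14). LEF1-AS1, which overlaps 1.43 kb at the start of LEF1 on the other strand, had 4 to 24 counts per library and did not pass in any of the 3 comparisons with baseline. The summed T cell markers were 16.5 to 17.8 CPM in baseline, 42.5 to 44.3 in EZH2i, 39.3 to 44.4 in CBPi and 364 to 385 in FSK libraries, where LEF1 was lowest. IL7R, which rose in all 3 comparisons, made up most of each sum, and CD5 fell with CBPi (edgeR adjusted p = 0.00218).

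TCF7, which encodes TCF-1, moved against LEF1 in the CBPi and FSK comparisons. Baseline libraries were at 80.4, 81.1 and 80.4 CPM and FSK libraries at 122, 125 and 125 CPM, with no overlap. The rise was 1.54-fold (log2 fold change 0.62 ± 0.05 SE, edgeR adjusted p = 7.18e-09) and did not pass against a fold of 1.5 (0.551). CBPi libraries were at 74.4, 62.2 and 72.7 CPM, all below baseline, and replicate 2 was the lowest. The fall was 1.16-fold (-0.21 ± 0.06, edgeR adjusted p = 0.00316), and it was -0.14 without CBPi replicate 2, where it still passed (edgeR adjusted p = 0.0108). EZH2i libraries, at 83.2, 80.6 and 77 CPM, overlapped baseline (log2 fold change -0.0062, interval -0.12 to 0.11, edgeR adjusted p = 0.932). That sign turned under 3 other scalings or filters. CBPi and FSK differed by -0.83 ± 0.05, more than 1.5-fold (edgeR glmTreat adjusted p = 2.55e-04), EZH2i and FSK by -0.63 ± 0.05 (edgeR adjusted p = 2.99e-09) and EZH2i and CBPi by 0.20 ± 0.06 (0.00529). The ubiquitin ligase subunit gene SKP1 overlaps the last 2.93 kb of TCF7 on the other strand. The strand setting of the counting is not given in the sources used here. SKP1 averaged 292 ± 7.7 CPM at baseline, and it fell in all 3 comparisons, to 215 ± 2.3 (EZH2i), 206 ± 10 (CBPi) and 242 ± 13 CPM (FSK). The part of SKP1 reads in the TCF7 counts was not tested. Of the summed T cell markers in FSK libraries IL7R made up 376 ± 12 CPM, while the CD3 genes and PTPRC had no count in those libraries. CD5, the other marker tested, averaged 1.13 ± 0.42 CPM in baseline and 1.92 ± 0.32 CPM in FSK libraries and rose as well (edgeR adjusted p = 0.031). The part of these markers' cells in the result was not tested.

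TCF7L2, whose protein TCF-4 is the main factor of the intestine, rose with EZH2i. Baseline libraries were at 13.4, 14.1 and 13.8 CPM and EZH2i libraries at 20.7, 17.5 and 20.03 CPM. The groups did not overlap, and the rise was 1.41-fold (log2 fold change 0.49 ± 0.08 SE, edgeR adjusted p = 3.24e-05). CBPi libraries, at 14.2, 15.3 and 16.3 CPM, lay above baseline and did not pass (0.15, interval -0.028 to 0.33, edgeR adjusted p = 0.139). FSK libraries, at 11.1, 13.3 and 11.6 CPM, lay below baseline and did not pass (-0.20, interval -0.39 to -0.017, edgeR adjusted p = 0.064). FSK replicate 2 was the highest of its group, and without it the fall passed (-0.29, edgeR adjusted p = 0.0199). TCF7L2 was lower with FSK than with EZH2i or CBPi, by 0.70 ± 0.08 and 0.35 ± 0.09 as the higher treatment minus FSK (edgeR adjusted p = 3.71e-07 and 0.00162). EZH2i exceeded CBPi by 0.34 ± 0.08 (0.00169).

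TCF7L1, which encodes the mostly repressive factor TCF-3, was near the detection limit except with EZH2i. Its deposited counts were 15, 13 and 18 at baseline, 9, 17 and 22 with CBPi, and 13, 14 and 18 with FSK. With EZH2i they were 60, 61 and 65. In CPM the baseline mean was 0.67 ± 0.18 and the EZH2i mean 2.01 ± 0.15, 3.04-fold higher with no overlap (log2 fold change 1.61 ± 0.23 SE, edgeR adjusted p = 6.02e-06, and 5.06e-04 against a fold of 1.5). It also exceeded CBPi by 1.62 ± 0.23 and FSK by 1.65 ± 0.23 (edgeR adjusted p = 9.91e-06 and 3.39e-06). No difference was detected at this depth among baseline, CBPi and FSK. The interval for CBPi against baseline was -0.64 to 0.61 and for FSK -0.67 to 0.58, both on the log2 scale.

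**Figure D1:**
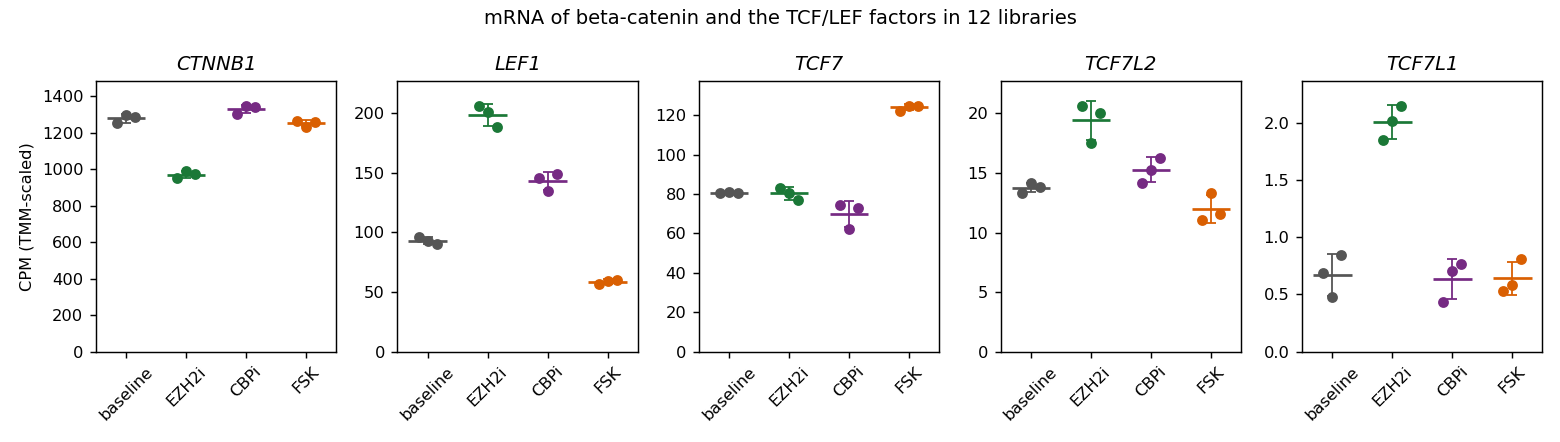
TMM-scaled CPM of the 5 genes in each library (points), with the group mean (line) and SD (bar, n = 3), on linear axes that start at 0 and differ between panels. LEF1 separates all 4 groups, from 56.7 to 60.3 CPM with FSK to 188 to 206 CPM with EZH2i. TCF7L2 also separates them, by narrower gaps, with EZH2i highest at 17.5 to 20.7 CPM. CTNNB1 is lowest with EZH2i and, by a narrow gap, highest with CBPi, and TCF7L1 is highest with EZH2i. TCF7 is highest with FSK and lowest with CBPi. Not each of these differences passed the test.

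Counted over the 5 genes, 4 changed with EZH2i (LEF1, TCF7L1 and TCF7L2 higher, CTNNB1 lower), against 57.8% of all genes tested, 29.5% higher and 28.3% lower. With CBPi 2 changed (LEF1 higher, TCF7 lower), against 58.9% of all genes, 29.8% higher and 29% lower. With FSK 2 changed (TCF7 higher, LEF1 lower), against 50.6%, 25.5% higher and 25.1% lower. Groups did not overlap in 4, 4 and 3 of the 5 genes, and in 65.9%, 62.1% and 57.5% of all genes. With 5 genes these shares are coarse, and nothing is read from them about the genes as a set. Changes past 1.5-fold were fewer in all genes, 11.4% with EZH2i, 12.2% with CBPi and 11.8% with FSK, and 2, 0 and 0 of the 5 genes were among them. LEF1 with EZH2i changed by more than 91.5% of all genes in absolute log2 fold, and TCF7L1 by more than 96.1%. CTNNB1 with EZH2i lay in the middle, above 58.3% of genes. Between treatments 5 of 5 differed for EZH2i against CBPi, 4 higher and 1 lower (43.9% of all genes, 21.7% higher and 22.2% lower), and did not overlap (52%), with 1 past 1.5-fold (4.88%). For EZH2i against FSK 5 of 5 differed, 3 higher and 2 lower (61.6%, 30.3% higher and 31.3% lower), and did not overlap (67.5%), with 2 past 1.5-fold (18.5%). For CBPi against FSK 4 differed, all but TCF7L1, 3 higher and 1 lower (58.8%, 29.3% higher and 29.5% lower), and these did not overlap (61.5%), with 2 past 1.5-fold (15.3%). The 3 comparisons with baseline share the baseline libraries. Among all genes called with FSK 50.5% were higher, or 39.7% when libraries were scaled by size only. LEF1 and TCF7 kept their directions and calls under that scaling.

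**Figure D2:**
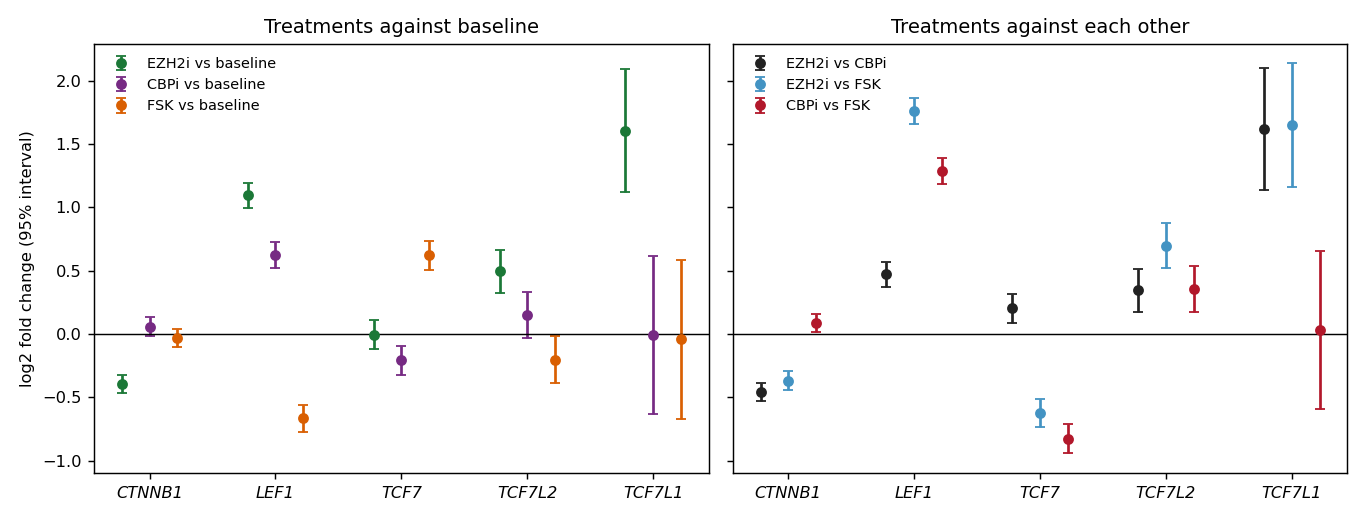
log2 fold change of each gene with its 95% interval from the edgeR fit, for the treatments against baseline (left) and against each other (right), where the first group named minus the second is plotted. LEF1 and TCF7 point in opposite directions with CBPi and FSK, and the intervals of TCF7L1 are the widest.

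The makeup of TCF/LEF mRNA differed between groups, and with FSK the leading factor was another one. Per kilobase of deposited gene length, LEF1 made up 63% ± 0.86 of the summed level of the 4 factors in baseline libraries, and TCF7 29% ± 0.52 (SD, n = 3). In EZH2i libraries LEF1 made up 76.6% ± 0.62 and TCF7 16.5% ± 0.051, and in CBPi libraries 74.1% ± 0.37 and 19.2% ± 0.91. In FSK libraries LEF1 made up 43.5% ± 0.50 and TCF7 48.8% ± 0.57. The shares of LEF1 ranged over 62.3% to 64% at baseline and 43.2% to 44.1% with FSK. No libraries of different groups overlapped in the LEF1 share. The summed level on that scale was 27.5 ± 0.49 in baseline, 48.3 ± 2 in EZH2i and 36 ± 2 in CBPi libraries. In FSK libraries it was 25.1 ± 0.60, and whether that is below baseline turned with the length used. With no length the sum was 188 ± 2.6 CPM in baseline and 195 ± 4.1 CPM in FSK libraries, and per kilobase of the longest coding transcript 54.5 ± 0.75 and 57.2 ± 1.2. With the median coding transcript FSK was again the lower, at 86 ± 1.9 against 94.5 ± 1.9. These shares move with the length used, and LEF1 at baseline was 49.1% with the longest coding transcript of each gene and 66.2% with the median coding transcript. The ratio of LEF1 to TCF7 CPM needs no length to be compared between groups. It ranged over 1.12 to 1.20 in baseline, 2.44 to 2.49 in EZH2i, 1.96 to 2.17 in CBPi and 0.465 to 0.483 in FSK libraries, with no overlap between groups. Per kilobase, β-catenin mRNA stood at 3.95 ± 0.13 times the summed factors in baseline libraries, 1.71 ± 0.092 times in EZH2i, 3.15 ± 0.21 times in CBPi and 4.24 ± 0.15 times in FSK libraries. The EZH2i ratio was the lowest of the 4 groups on each of the 4 length scales, and the order of baseline and FSK turned, to 6.80 ± 0.20 and 6.42 ± 0.21 with no length and 4.96 ± 0.14 and 4.63 ± 0.14 with the longest coding transcript. These makeup values describe the libraries and were not tested.

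**Figure D3:**
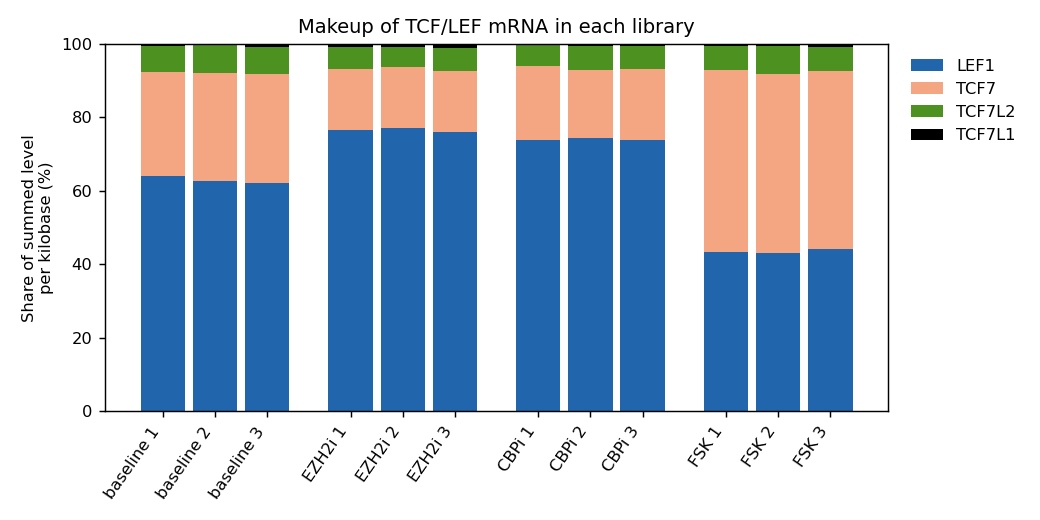
Share of LEF1, TCF7, TCF7L2 and TCF7L1 in their summed level per kilobase of deposited gene length, 1 bar per library. LEF1 holds 62.3% to 64% at baseline and 43.2% to 44.1% with FSK, where TCF7 becomes the largest share.

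The genes whose pattern lay closest to LEF1 over the 12 libraries, by Pearson correlation of log2 CPM among 14798 genes, were ZNRF3 (0.998), GLI3 (0.998) and FAM171A1 (0.997). ZNRF3 encodes a ubiquitin ligase that removes Wnt receptors, and GLI3 a Hedgehog transcription factor. In the order baseline, EZH2i, CBPi and FSK, ZNRF3 averaged 151, 322, 223 and 88.1 CPM and GLI3 91.5, 214, 139 and 53.2 CPM. For TCF7 the closest were TMEM132E (0.990), CLUH (0.986) and RELB (0.986), and RELB, a subunit of NF-kappa-B, went from 6.43 CPM at baseline to 19.3 CPM with FSK. CTNNB1 was closest to PCCA (0.986), a mitochondrial carboxylase subunit gene, whose mean was 105 CPM in baseline and 57.3 CPM in EZH2i libraries. TCF7L2 was closest to LDB1 (0.950), a cofactor of LIM proteins, and TCF7L1 to EPS15L1 (0.961). Libraries of a group lie together, so these values rest mainly on 4 group levels and describe likeness only.

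**Figure D4:**
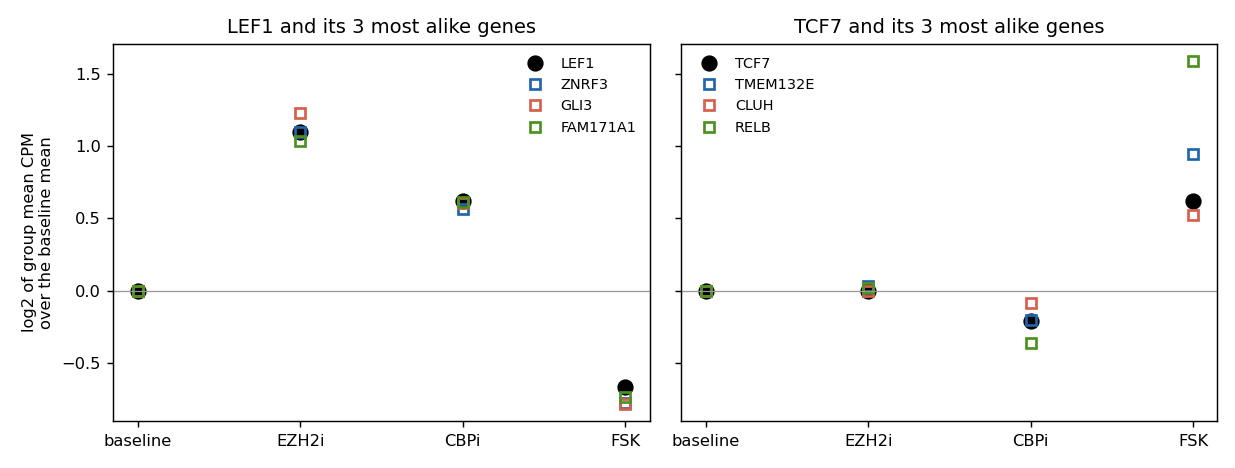
log2 of the group mean CPM over the baseline mean for LEF1 and TCF7 (filled circles) and the 3 genes with the highest Pearson correlation to each (open squares). ZNRF3, GLI3 and FAM171A1 lie close to LEF1 in every group, while RELB rises further than TCF7 with FSK.

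Each list is set beside the share of all genes that changed, 57.8% with EZH2i (29.5% higher, 28.3% lower), 58.9% with CBPi (29.8% and 29%) and 50.6% with FSK (25.5% and 25.1%), and beside the all-gene medians of 0.024, 0.015 and 0.015 on the log2 scale. Among 29 Wnt target genes tested, other than LEF1 and TCF7 themselves, 20 rose and 5 fell with EZH2i, with a median log2 fold change of 0.76 against 0.024 over all genes. The feedback inhibitor gene NKD2 went from 1.1 to 12.5 CPM, 3.53 on the log2 scale, the cyclin gene CCND1 from 2.24 to 22.6 CPM (3.33), the related inhibitor gene NKD1 from 353 to 1288 CPM (1.87) and the Notch ligand gene JAG1 from 6.56 to 19.2 CPM (1.55). BIRC5, PTTG1 and WIF1 fell (-0.74, -0.49 and -0.45). With CBPi 17 rose and 8 fell, with a median of 0.43 against 0.015. JAG1 rose most, to 33.6 CPM (2.36), before CCND1 at 9.27 CPM (2.04) and NKD1 at 1016 CPM (1.52). FGF20, near the detection limit, fell from 1 to 0.331 CPM, BIRC5 from 221 to 106 CPM and WIF1 from 2.47 to 1.42 CPM. With FSK 21 fell and 5 rose, with a median of -0.78 against 0.015. The Wnt inhibitor genes WIF1 and NOTUM fell from 2.47 to 0.298 CPM (-3.05) and from 43 to 8.2 CPM (-2.39). LGR5, the stem cell receptor gene, fell from 12.7 to 2.66 CPM (-2.25) and ISM1 from 72.3 to 9.2 CPM (-2.97). NKD1 fell to 203 CPM. DKK1, PROX1 and NKD2 rose with FSK, DKK1 from 7.17 to 28.1 CPM. AXIN2, the feedback scaffold of the destruction complex, averaged 103 ± 4.6 CPM in baseline, 193 ± 3.3 in EZH2i, 172 ± 3 in CBPi and 46.1 ± 1.1 in FSK libraries. This is the group order of LEF1, and each of its 3 changes from baseline passed (log2 fold change 0.91, 0.74 and -1.15). The list was chosen with results of these data known, so its direction is a description.

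Coactivators work with β-catenin and the factors on DNA. Of 19 of their genes tested, 15 rose and 3 fell with EZH2i (median 0.40, with 29.5% of all genes higher), 11 rose and 4 fell with CBPi (0.22, with 29.8% higher), and 5 rose and 6 fell with FSK (-0.061, with 25.5% higher). TBL1X, which exchanges corepressors for coactivators, went from 21.8 to 47.5 CPM with EZH2i (1.12), 38.5 with CBPi (0.82) and 36.9 with FSK (0.75). BCL9L, an adaptor between β-catenin and Pygopus, rose from 65.3 to 103 CPM with EZH2i (0.66) and fell to 47.4 CPM with FSK (-0.47). CREBBP, which encodes CBP, rose with EZH2i (0.56) and CBPi (0.45), from 121 ± 10 CPM to 178 ± 8.2 and 165 ± 12 CPM. With FSK it was at 115 ± 5.5 CPM and did not pass. EP300, its relative, rose by 0.37 with EZH2i and 0.30 with CBPi. RUVBL1, PAF1 and CDC73 fell with both inhibitors, PAF1 by 0.31 with EZH2i and by 0.59 with CBPi on the log2 scale. PAF1 and CDC73 also fell with FSK, from 164 to 134 CPM and from 69.8 to 59.2 CPM, while RUVBL1 did not pass.

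Corepressors and inhibitors of the factors went both ways. Of 20 tested, 7 rose and 5 fell with EZH2i (median -0.0072), near the 57.8% of all genes that changed. With CBPi 5 rose and 9 fell (-0.11, with 58.9% of all genes changed), and without CBPi replicate 2 these were 4 and 9 with a median of -0.028. With FSK 4 rose and 10 fell (-0.18, with 50.6% of all genes changed). TLE3, a Groucho corepressor gene, rose in all 3 comparisons, the baseline mean being 26.7 ± 0.73 CPM and the others 70.5 ± 1.9 (EZH2i, 1.40), 48.8 ± 5.3 (CBPi, 0.87) and 40.2 ± 1.5 CPM (FSK, 0.59). TLE4, its relative, rose with EZH2i from 52.3 to 65.1 CPM (0.31) and fell with FSK to 25.3 CPM (-1.05). TLE1, at 420 CPM in baseline libraries, was at 401 CPM with EZH2i and did not pass, rose to 495 CPM with CBPi (0.24) and fell to 345 CPM with FSK (-0.29). CTNNBIP1, which encodes ICAT, a small inhibitor that keeps β-catenin from the factors, fell in all 3 comparisons (-0.42, -0.45 and -0.29). NLK, a kinase that releases the factors from DNA, fell as well (-0.43, -0.50 and -0.55).

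Upstream of β-catenin, 15 of 26 genes of the destruction complex and its control rose and 3 fell with EZH2i (median 0.21, with 57.8% of all genes changed). With CBPi 13 rose and 7 fell (0.20, with 58.9% of all genes changed), or 16 and 7 without CBPi replicate 2. With FSK 12 rose and 8 fell (0.036, with 50.6%). The list holds parts of the complex together with genes that control it, such as the co-receptor gene LRP5. AXIN2, which rose most of the list with EZH2i, is also counted among the Wnt target genes. These counts therefore do not describe the complex alone. The scaffold genes APC and AXIN1 did not pass with EZH2i (0.10 and -0.04) or with CBPi. With FSK both passed, and AXIN1 rose from 49.3 to 69.4 CPM while APC fell from 109 to 90.5 CPM. GSK3B rose from 113 to 135 CPM with EZH2i (0.26) and 138 CPM with CBPi (0.29), and was at 115 CPM with FSK and did not pass. SIAH1, a ubiquitin ligase gene, rose from 17.3 to 26 CPM with EZH2i (0.58) and 33.4 CPM with CBPi (0.95). With FSK APC2 fell from 11.8 to 5.16 CPM (-1.20), AMER1 from 54.1 to 29.3 CPM (-0.89), and the co-receptor gene LRP5 rose from 84.2 to 159 CPM (0.92).

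β-catenin also links cadherins to the actin skeleton, and 9 of 12 genes of that role passed the filter on low counts, with CDH1, CDH3 and CTNND2 left out. CDH1, the epithelial cadherin gene, averaged 0.125 to 0.414 CPM in the 4 groups. CDH2, the N-cadherin gene, fell from 145 to 127 CPM with EZH2i (-0.20) and 113 CPM with CBPi (-0.37) and rose to 163 CPM with FSK (0.16). CDH11 fell in all 3 comparisons, from 24.5 CPM to 12.2, 9.07 and 8.88 CPM. JUP, which encodes plakoglobin, the closest relative of β-catenin, rose from 21.6 ± 1 CPM to 31 ± 0.66 with EZH2i (0.52) and 26.2 ± 3.2 with CBPi (0.28), and fell to 18.7 ± 1.3 with FSK (-0.22). CTNNA2, a neuronal α-catenin gene, fell from 150 to 30.9 CPM with FSK (-2.28). In all, 4 of the 9 rose and 4 fell with EZH2i (57.8% of all genes changed), 3 rose and 4 fell with CBPi (58.9%), and 2 rose and 4 fell with FSK (50.6%).

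**Figure D5:**
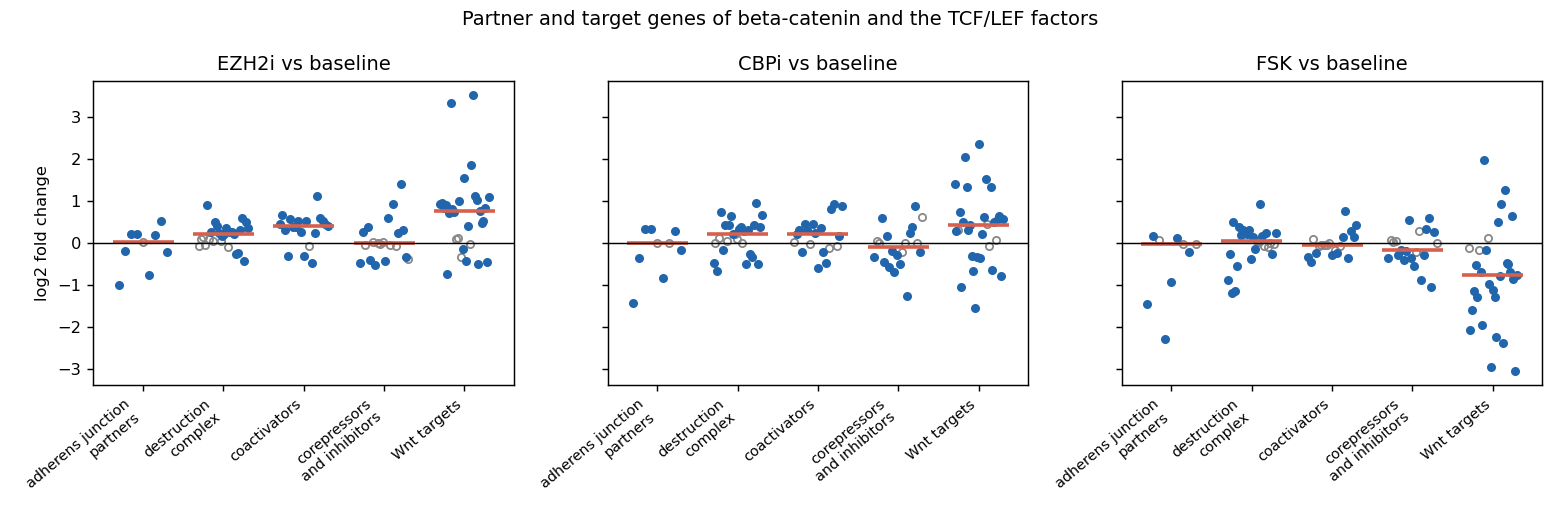
log2 fold change of every tested gene of the 5 lists in the comparisons with baseline, filled where the edgeR adjusted p was below 0.05, with the list median as a bar. The median of the Wnt targets lies at 0.76 with EZH2i, 0.43 with CBPi and -0.78 with FSK.

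Promoters were examined in the 250 bases before each of 8 annotated starts of the 5 genes (RefSeq, GRCh38.p14). The TCF/LEF letters ATCAAAG or TTCAAAG, on either strand, were in none of the 8 windows, and they are in 2.26% and 3.8% of all 35116 windows of that length. The core TGACG of the cAMP response element was in 2 of the 8, one of CTNNB1 and one of TCF7L2, against 21.2% of all windows, and the full site TGACGTCA in none (1.65%). AAGGTCA, a core that NR5A1 binds, was in the first window of TCF7 (3.44% of all windows). A match describes letters and not a bound site. The CTNNB1 and LEF1 windows lie inside the GENCODE genes, 4764 and 2655 bases from their starts and within exons of longer transcripts, so their letters are not those before the first start. The first and second windows of TCF7 also lie inside its gene, 902 and 8907 bases from the start. The first windows of TCF7L1 and TCF7L2 are printed because they are the only 2 of the 8 that lie wholly before the GENCODE start of the gene. The first windows held 72% G and C for TCF7L1, 68% for TCF7L2, 74.4% for CTNNB1, 70.8% for TCF7 and 47.6% for LEF1, against a median of 58% over all windows. Among these first windows that of LEF1 was the poorest in G and C and that of CTNNB1 the richest. The second window of TCF7L2, at 42.4%, was poorer still than that of LEF1. TCF7L1 and TCF7L2, whose first windows lay above the median, rose with EZH2i as LEF1 did. Those of CTNNB1 and TCF7 lay above the median as well, while CTNNB1 fell with EZH2i and TCF7 did not pass. Any link of these contents to the changes was not tested. The TCF7L1 window is chr2:85133142-85133391 and the TCF7L2 window chr10:112949997-112950246, both on the plus strand, and capitals mark TGACG, here read on the other strand.
TCF7L1: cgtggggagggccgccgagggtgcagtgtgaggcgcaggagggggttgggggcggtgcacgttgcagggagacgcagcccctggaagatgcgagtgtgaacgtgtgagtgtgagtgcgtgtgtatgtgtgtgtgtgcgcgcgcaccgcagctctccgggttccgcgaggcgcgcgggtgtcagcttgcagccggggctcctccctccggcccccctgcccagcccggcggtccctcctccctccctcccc
TCF7L2: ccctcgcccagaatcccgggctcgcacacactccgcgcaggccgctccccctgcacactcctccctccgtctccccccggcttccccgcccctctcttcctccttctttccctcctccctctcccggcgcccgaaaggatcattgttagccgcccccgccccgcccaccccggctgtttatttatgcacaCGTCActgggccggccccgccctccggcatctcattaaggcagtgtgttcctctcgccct
The TCF7L1 window held 24 CpG pairs and the TCF7L2 window 21, against a median of 11. No binding, mark or methylation was measured in these libraries.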

How the data were processed

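Polyadenylated RNA of 12 NCI-H295R libraries was aligned with STAR to hg38 and counted with featureCounts, per the submitters' processing notes. The sources used here do not give versions, annotation release, strand setting or how multimapping reads were treated. Values deposited by the authors are estimated counts (expected counts, 65.6% of non-zero values whole within 1e-06) and, from the authors, a gene length in another unit, bases. All 12 count columns matched labels by name, with 0 unused. The labels call the replicates biological and do not say how cultures were separated, so p-values measure the spread between these libraries.

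Counts were rounded, filtered with filterByExpr and scaled by TMM (edgeR 4.0.16, R 4.3.3). One robust quasi-likelihood model over the 4 groups gave 6 pairwise tests, adjusted by Benjamini-Hochberg over 20360 genes, threshold 0.05. The SE is the log2 fold change divided by the square root of F, and intervals are 95%. glmTreat tested against a fold of 1.5. CPM and levels per kilobase are means ± SD of 3 libraries. The pipeline was tested on simulated data. Also tried were voom (limma 3.58.1), DESeq2 1.42.0, other scalings and filters, unrounded counts, 2-group fits and each library left out. Symbols were available for 60261 genes. Promoter sequences came from RefSeq (GRCh38.p14, matched for 5 of 5 genes) and coding sequences from GENCODE 29.

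The genes named are the 5 members, up to 4 genes of a list with the largest changes that passed, up to 3 against its majority, a fixed set (CREBBP, EP300, AXIN2, NKD1, TLE genes, JUP), and the 3 genes most like each member above a mean log2 CPM of 1 (prior count 2). APC, AXIN1, GSK3B, CTNNBIP1, CDH1 and the marker IL7R were named beside these for their roles, after their values were seen. The markers NR0B1, MRAP and INHA were named after their values were seen, because they did not always go with most of their list. The members and lists were chosen with earlier results of these data known.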

Additional observations from a re-analysis of the deposited data

How the results depend on the processing

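Of 450 refits of the 30 member comparisons 425 kept direction and call, and all 90 refits of the gene counts stayed within 1.5 times. The exceptions were small differences. TCF7L2 with FSK passed with RLE size factors (-0.21, adjusted p = 0.049, edgeR) and with library size only (-0.27, 0.0161), and was -0.29 to -0.15 with 1 library left out. CTNNB1 with FSK passed with library size only (-0.10, edgeR adjusted p = 0.0161). CTNNB1 between CBPi and FSK was lost with no filter (0.10, edgeR adjusted p = 0.0654) and in the fit of 2 groups (0.081, 0.107), and was 0.075 to 0.10 with 1 library left out. TCF7 with EZH2i, never called, turned to 0.010 (upper quartile), 0.016 (library size only) and 0.0029 (at least 1 CPM in at least 3 libraries), and ranged from -0.034 to 0.022 with 1 library left out. TCF7L1, never called outside the EZH2i comparisons, ranged from -0.23 to 0.18 (CBPi against baseline), -0.26 to 0.15 (FSK against baseline) and -0.13 to 0.22 (CBPi against FSK), where 9 to 22 counts per library limit it. Library size alone moved the median of all genes by at most 0.092.

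The LEF1 share at baseline, EZH2i, CBPi and FSK was 49.5%, 66.1%, 62.6% and 30.1% from counts with no length, 66.2%, 79.8%, 77.1% and 45.9% with the median coding transcript, and 49.1%, 65.9%, 62.4% and 29.5% with the longest. The TCF7 share was 42.9%, 26.7%, 30.5% and 63.5%, then 29.7%, 16.7%, 19.5% and 50.2%, then 44.4%, 27.9%, 31.7% and 65.1%. These transcript lengths, also used for the summed level and the β-catenin ratio, were chosen after seeing the data, as were list counts without CBPi replicate 2. LEF1 stayed above TCF7 in all but the FSK group on each scale. No paired analysis was possible because the labels give no replicate numbers. Those used here only name the libraries, in the order in which the samples are listed.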
